A study of Homo sapiens with 8 samples.

Results

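The comparison described here sets ITGB4-low clone 1 cells recovered from the lungs of bleomycin-treated mice (3 libraries) against the same clone grown in dishes (3 libraries), which together make 6 of the 8 RNA-seq libraries of the series. Libraries were chosen by their sample titles, and all 14419 genes with enough counts were tested. SUM159 is an established human triple-negative breast cancer line, and ITGB4 low is the genotype label that both groups carry. Every library here therefore comes from 1 clone, and the traits of that clone are shared by both groups. The lung-recovered cells had been given to mice by tail vein, the mice had received bleomycin through the trachea, and their lungs were taken at the end point and dissociated. The lung suspension then spent a night in dishes, in Ham's F-12 medium with serum, insulin and hydrocortisone, before the cells were sorted by FACS for tdTomato, a red fluorescent protein. The dish-grown cells were not injected, and no dissociation or sort is described for them. The sources used here state the medium for the lung-derived cells alone and give no mouse strain or age, no bleomycin dose and no time for the end point. With these groups, bleomycin, the stay in the lung, dissociation, the night in culture, the sort and any selection among the injected cells cannot be told apart. Replicates are labelled as biological, but no culture or animal is named for them, so the p-values rest on a spread between samples that may be technical.

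ITGB4 is the integrin beta chain of hemidesmosomes, the plaques that tie the keratins of basal epithelial cells to laminin in the basement membrane. Epithelial-mesenchymal transition is the loss of such epithelial attachments and the gain of matrix, contractile and migratory genes. Bleomycin breaks DNA and inflames the lung. NF-kB is a family of transcription factor dimers that inhibitor proteins hold in the cytoplasm until signals from TNF receptors, interleukin-1 receptors or pattern sensors release them, after which they switch on chemokines, adhesion molecules and their own inhibitors.

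Because many NF-kB target genes were higher in the lung-recovered cells, the promoters of 6 of them are shown. They are the members of the chemokine list and of the NF-kB list with the largest fold changes among those called higher with a match to the NF-kB consensus between 250 bases before and 50 bases after the gene's start. Each line gives 60 bases of the human reference (RefSeq, GRCh38.p14), read 5′ to 3′ on the gene's strand, with matches on either strand in capitals. CXCL2, NFKBIZ and TNFAIP3 were chosen for display after their values were seen.
VCAM1 (chr1:100719655-100719714, + strand): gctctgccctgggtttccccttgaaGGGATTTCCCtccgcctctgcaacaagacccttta
CCL20 (chr2:227813738-227813797, + strand): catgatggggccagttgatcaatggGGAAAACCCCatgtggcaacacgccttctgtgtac
CXCL3 (chr4:74038733-74038792, - strand): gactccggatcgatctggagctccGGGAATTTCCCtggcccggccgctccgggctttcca
CXCL2 (chr4:74099238-74099297, - strand): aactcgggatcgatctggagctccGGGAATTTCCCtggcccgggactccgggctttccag
NFKBIZ (chr3:101827742-101827801, + strand): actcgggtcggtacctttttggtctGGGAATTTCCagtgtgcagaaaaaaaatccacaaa
TNFAIP3 (chr6:137867179-137867238, + strand): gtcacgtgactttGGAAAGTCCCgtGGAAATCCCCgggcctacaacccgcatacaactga
The stretches of CXCL3 and CXCL2, paralogous genes for neutrophil chemokines, each hold a pair of overlapping matches that read as 1 run of capitals, and that of TNFAIP3, an enzyme that shuts NF-kB signalling off, holds 2 separate matches. VCAM1 encodes an adhesion molecule for leukocytes, CCL20 a chemokine for cells with the receptor CCR6, and NFKBIZ a nuclear NF-kB cofactor. Of the 10136 tested genes with a RefSeq promoter, 6.58% held an NF-kB match in this window. The share was 11.8% among 289 promoters of genes higher at 2-fold or more and 5.26% among 190 promoters of genes lower at 2-fold or more. An interferon response element (TTTC, any 2 bases, TTTC, on either strand) was found in 2.93% of all tested promoters, 4.84% of those higher at 2-fold and 3.16% of those lower at 2-fold. An AP-1 element (TGANTCA, either strand) was found in 4.76% of all, 8.3% of those higher at 2-fold and 10.5% of those lower at 2-fold. Among chemokine and NF-kB list members with a promoter, 12 of 30 called higher held an NF-kB match, against 3 of 11 not called higher. These are matches of letters and say nothing of binding.

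Depth was even, at 20.41 to 24.89 M counts in the dish-grown and 21.03 to 26.3 M in the lung-recovered libraries, and levels are given in CPM, a gene's count scaled to the size of its library. A principal component analysis put the groups apart on its first axis, which held 75.5% of the variance. The next axis (7.7%) set dish-grown library 1 apart from the other dish-grown libraries. Replicates differed from each other by more than counting noise, so each was kept as 1 sample. Markers of lymphocytes, neutrophils and erythroid cells summed to at most 0.342 CPM in any library. Reads were aligned to the human genome, and mouse RNA would count only where it resembles a human gene. Low sums of markers therefore cannot show that mouse cells were absent. The 10 lung epithelial markers summed to 2.2 to 2.81 CPM in dishes and 2.47 to 2.96 CPM after recovery. Of these, 4 had 0 counts in all 6 libraries, which allows up to 3 counts in a group, and 3 could be tested: LAMP3 rose (1.98 on the log2 scale), NKX2-1 fell (-3.78) and AGER was not called. The 7 endothelial markers summed to 3.63 to 5.63 CPM in dishes and 2.81 to 3.42 CPM after recovery, and both that could be tested, KDR (-0.71) and TEK (-1.44), fell. Of the 6 markers of a basal breast line, 4 rose by more than 2-fold (KRT5, KRT14, TP63 and ITGB4), EGFR, the EGF receptor, fell, and VIM, the mesenchymal intermediate filament, was not called (log2 fold change -0.06, SE 0.04, adjusted p = 0.317).

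Of the 14419 tested genes, 2354 (16.3%) were called higher after recovery and 2315 (16.1%) were called lower, 32.4% in all, by edgeR's quasi-likelihood test at a Benjamini-Hochberg adjusted p under 0.05. In bulk RNA, fewer cells that express a gene and less RNA of it per cell cannot be told apart. Of the tested genes, 428 reached the filter's level (0.445 CPM) in every lung-recovered library but not in every dish-grown one, and 294 the reverse. Of the former 218 were called higher and none lower, and of the latter 115 were called lower and none higher; such genes entered the test because 1 group was high, so their direction is no evidence about a list. Most changes were small. The median size of a called change was 0.33 on the log2 scale, and 3328 of the called genes (71.3%) changed by less than 1.5-fold. Large changes leaned upward, with 445 genes (3.09%) higher and 295 (2.05%) lower at 2-fold or more, and 171 against 57 at 4-fold or more. For 44.4% of all tested genes, every library of one group lay above every library of the other. Among called genes this share was 96.4%, so it adds little to a call. On simulated counts for this comparison, the test recovered 86% of genes changed 1.5-fold and 96% of those changed 2-fold. It recovered 62% at the smallest change simulated, which was under 1.5-fold, the range of most calls here. There were 15 false calls among 14419 genes. The simulation changed far fewer genes than were called in the data. It cannot give the error rate of these calls if the spread between libraries is technical. The plot of fold change against level shows the excess of large rises among genes of low and middle level.

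**Figure D1:**
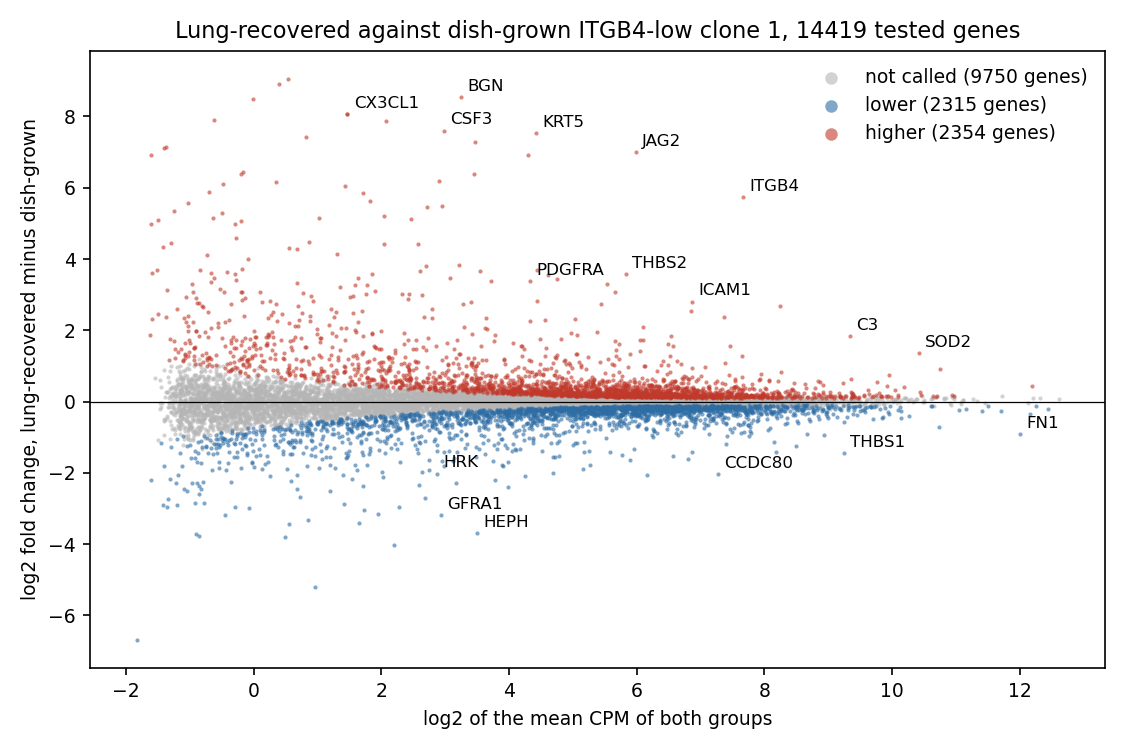
Each point is 1 of 14419 tested genes, with the log2 of its mean CPM on the horizontal axis and its log2 fold change (lung-recovered minus dish-grown) on the vertical axis; red marks genes called higher, blue lower and grey not called. Rises reach further from 0 than falls, with ITGB4, JAG2, KRT5, CSF3 and BGN among the largest and HEPH and GFRA1 among the largest falls.

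The genes that attach basal epithelial cells to laminin were among those that rose most. ITGB4 itself (ENSG00000132470, hg38 chr17:75721328-75757818) stood at 5.34, 7.5 and 9.14 CPM in the dish-grown libraries and 404, 378 and 411 CPM in the lung-recovered libraries (log2 fold change 5.74, SE 0.09, adjusted p = 3.46e-16). The label ITGB4 low thus names the clone that was injected and not the level found after recovery, which was 53.6-fold above the dish level. BCAM, a cell-surface laminin receptor, had 2 counts in the 3 dish-grown libraries together and 595 in the lung-recovered libraries, a ratio of 279 (95% counting interval 76.9 to 2310). ITGB4 was low and BCAM near silent in every dish-grown library. The groups did not overlap for either gene, as for 96.4% of all called genes. Of the 16 members of the hemidesmosome and laminin list, all tested, 9 rose, 2 fell and 5 were not called, with a median log2 fold change of 0.19 against 0.005 over all tested genes. DST, the plakin that links hemidesmosomes to keratin, was one that fell, from 356, 203 and 230.1 CPM to 165, 179 and 151 CPM (log2 fold change -0.67, SE 0.14, adjusted p = 0.00127).

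Several genes of stratified epithelium rose, while others fell or were not called. KRT5, the keratin of basal cells, was at 0.0979, 0.33 and 0.242 CPM in the dish-grown libraries and 40.7, 47.2 and 39.9 CPM in the lung-recovered libraries (log2 fold change 7.52, SE 0.17, adjusted p = 1.14e-14). KRT75, a keratin of the hair follicle, was at 0.538, 0.141 and 0.282 CPM in the dish-grown libraries and 35.2, 43.3 and 38.8 CPM in the lung-recovered libraries (log2 fold change 6.92, SE 0.18, adjusted p = 5.59e-14). Both were under 1 CPM in every dish-grown library and above 35 CPM in every lung-recovered one. DSG3, a desmosomal cadherin of stratified epithelium, had 1 count in dishes and 121 after recovery. Of 34 members of the basal and stratified epithelial list, 17 passed the low-count filter, of which 10 rose, 3 fell and 4 were not called. Of the 10 that rose, 5 (KRT5, KRT14, KRT17, KRT75 and DSG3) passed the filter through the lung-recovered libraries alone, so the count of 10 is no measure of the list. The other 17 were too low to test, and 8 of them had no count in any of the 6 libraries. KRT80 fell (285 to 146 CPM, log2 fold change -0.96), as did TRIM29 and SPRR2D, a cornified envelope gene.

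Among junction genes, the desmosomal plaque protein DSP was at 11, 11.1 and 11.9 CPM in the dish-grown libraries and 78.5, 73.3 and 75.4 CPM in the lung-recovered libraries (log2 fold change 2.74, SE 0.06, adjusted p = 6.76e-15). CLDN1, a sealing protein of tight junctions, was at 37.7, 30.3 and 33.3 CPM in the dish-grown libraries and 195, 204 and 189 CPM in the lung-recovered libraries (log2 fold change 2.54, SE 0.06, adjusted p = 2.45e-14). The groups were well apart for both. Of 28 members of the desmosome and tight junction list, 13 were tested, 7 rose, among them the polarity gene LLGL2, and 2 fell. Those that fell were OCLN, a tight junction protein (log2 fold change -0.86, SE 0.22, adjusted p = 0.00561), and TJP1, its cytoplasmic scaffold (log2 fold change -0.32). The simple epithelial list did not move as one: of 10 tested members of 27, KRT18 and KRT8, the keratins of simple epithelium, rose by 0.60 and 0.27 on the log2 scale, 3 fell and 5 were not called. CD24, a surface glycoprotein of luminal cells, fell 10-fold, from 3.18, 3.21 and 3.46 CPM to 0.338, 0.333 and 0.304 CPM. GATA3, a luminal transcription factor, fell by 0.38 on the log2 scale.

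**Figure D2:**
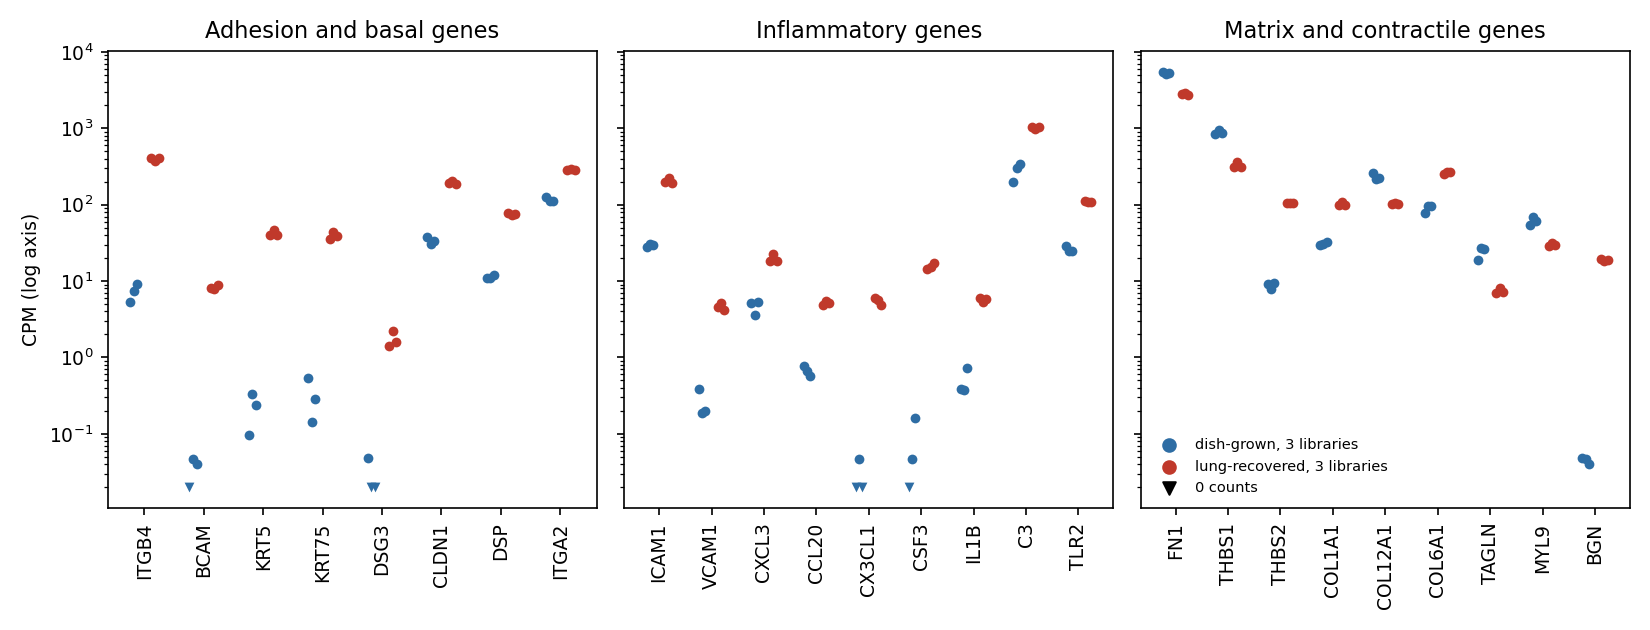
CPM of adhesion, inflammatory and matrix genes in each library on a log axis, with dish-grown libraries in blue, lung-recovered libraries in red and triangles for libraries with 0 counts. In each panel the colours do not overlap for any gene shown, whether the gene was near silent in dishes (KRT5, CX3CL1, BGN) or high in both groups (C3, FN1, COL6A1). All genes shown were picked from called genes. Groups do not overlap for 96.4% of called genes and 44.4% of all tested genes.

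Mesenchymal genes were lower in part. Of 22 tested members of the mesenchymal list (25 in all), 10 fell, 3 rose and 9 were not called, with a median log2 fold change of -0.07. FN1 (ENSG00000115414, chr2:215360440-215436172), fibronectin, was at 5549, 5207 and 5354 CPM in the dish-grown libraries and 2855, 2929 and 2742 CPM in the lung-recovered libraries (log2 fold change -0.92, SE 0.04, adjusted p = 3.94e-11). CDH2, the mesenchymal cadherin, fell from 262, 258 and 252 CPM to 139, 142 and 138 CPM (log2 fold change -0.88, SE 0.04, adjusted p = 2.68e-11), and CDH6, another cadherin, fell by 0.60 on the log2 scale. FN1 and CDH2 remained among well-expressed genes after recovery. SNAI1, a repressor of epithelial genes, moved the other way, from 0.979, 1.04 and 0.524 CPM to 3.09, 3.19 and 3.04 CPM (log2 fold change 1.89, SE 0.23, adjusted p = 1.02e-05). FOXC2, a further transcription factor of this programme, rose by 0.34 on the log2 scale.

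Most contractile genes fell. Of 28 tested members of the list of YAP and SRF targets and contractile genes (32 in all), 20 fell, 2 rose and 6 were not called, with a median log2 fold change of -0.38. YAP and SRF are transcription regulators that answer to cell tension and actin. TAGLN (ENSG00000149591, chr11:117199321-117204782), an actin-bundling protein of smooth muscle, was at 18.9, 27.4 and 26.4 CPM in the dish-grown libraries and 6.98, 8.09 and 7.29 CPM in the lung-recovered libraries (log2 fold change -1.71, SE 0.12, adjusted p = 2.14e-08). MYL9, a light chain of non-muscle and smooth muscle myosin, was at 53.5, 69.2 and 61.5 CPM in the dish-grown libraries and 29.1, 31.8 and 30 CPM in the lung-recovered libraries (log2 fold change -1.02, SE 0.08, adjusted p = 2.69e-08). ACTG2, the enteric smooth muscle actin, fell 7.9-fold from a low level of 1.37, 1.7 and 2.01 CPM. The lung-recovered libraries were lower than every dish-grown library for all of these, and 96.4% of all called genes lacked overlap. MYH9, the heavy chain of non-muscle myosin, was one of the 8 largest losses in CPM, from 3663 ± 95.5 to 3037 ± 38.4 CPM (SD, n = 3). CNN2, a calponin, rose by 0.16 on the log2 scale.

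The matrix genes changed in both directions and by large factors. Of 18 tested collagen genes (22 in the list), 9 rose, 5 fell and 4 were not called, with a median of 0.37. COL1A1, the main fibrillar collagen chain, was at 29.6, 30.6 and 32.5 CPM in the dish-grown libraries and 98.9, 108 and 99 CPM in the lung-recovered libraries (log2 fold change 1.72, SE 0.05, adjusted p = 4.35e-13). COL6A1, a chain of the beaded-filament collagen, was at 79, 96.2 and 94.8 CPM in the dish-grown libraries and 255, 267 and 267 CPM in the lung-recovered libraries (log2 fold change 1.55, SE 0.06, adjusted p = 6.77e-12). COL6A3, another chain of it, was among the 8 largest gains in CPM, from 1198 ± 143 to 2259 ± 69.8 CPM (SD, n = 3). COL12A1, a collagen that decorates fibrils, fell from 259, 218 and 223 CPM to 103, 105 and 101 CPM (log2 fold change -1.18, SE 0.06, adjusted p = 1.04e-10), and COL13A1, a transmembrane collagen, fell 2.54-fold. Beside these stand the markers of lung fibroblasts and smooth muscle, whose 10 members summed to 55.6 to 66.0 CPM in dishes and 128 to 136 CPM after recovery. COL1A1 made up most of that difference. COL1A2, LUM and TCF21 had 1, 1 and 0 counts in the dish-grown and 3, 5 and 7 in the lung-recovered libraries, and PDGFRB, a receptor of pericytes and fibroblasts, fell (log2 fold change -0.36).

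Matricellular genes, whose products sit in the matrix and signal to cells, split in the same manner. Of 24 tested members of 32, 8 rose and 11 fell. THBS1 (ENSG00000137801, chr15:39581079-39599466), thrombospondin, an activator of latent TGF-beta, was at 854, 950.1 and 865 CPM in the dish-grown libraries and 308, 367 and 308 CPM in the lung-recovered libraries (log2 fold change -1.44, SE 0.06, adjusted p = 2.93e-11). Its paralogue THBS2 went the other way, from 9.15, 7.97 and 9.38 CPM to 105, 106 and 104 CPM (log2 fold change 3.57, SE 0.06, adjusted p = 3.46e-16). BGN (ENSG00000182492, chrX:153494939-153509554), the proteoglycan biglycan, had 1 count in each dish-grown library and 461, 386 and 499 in the lung-recovered libraries, a ratio of 421 (144 to 2044). POSTN, periostin, rose 36.9-fold from 0.343, 0.236 and 0.0806 CPM. THBS1 and THBS2 thus moved in opposite directions, and the libraries of each group lay close together for both. Among those that fell were TGFBI, a TGF-beta-induced matrix protein (2116 to 1277 CPM), HSPG2, the basement membrane proteoglycan perlecan (646 to 334 CPM, log2 fold change -0.95), and CCN5 (-1.17).

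Proteases and their inhibitors moved as well. TIMP3, a matrix-bound inhibitor of metalloproteinases, was at 41.4, 45.9 and 45.6 CPM in the dish-grown libraries and 136, 133 and 136 CPM in the lung-recovered libraries (log2 fold change 1.6, SE 0.05, adjusted p = 2.54e-13). MMP2, a gelatinase, fell from 231, 232 and 235 CPM to 151, 151 and 152 CPM (log2 fold change -0.62, SE 0.04, adjusted p = 1.38e-09). The spread within each group was small beside both differences. Of 19 tested members of the metalloproteinase list (30 in all), 6 rose and 6 fell. In the coagulation and plasminogen list, 10 of 17 tested members (22 in all) rose and 2 fell, with a median of 0.32. SERPINA1, the elastase inhibitor alpha-1 antitrypsin, was at 2.4, 2.97 and 3.87 CPM in the dish-grown libraries and 39.2, 41 and 41 CPM in the lung-recovered libraries (log2 fold change 3.69, SE 0.10, adjusted p = 1.83e-13). PLAU, the urokinase activator of plasminogen, rose 13.1-fold but stayed under 2 CPM. F2RL2, a thrombin receptor, rose 9.71-fold. Of 11 tested integrins other than those of the hemidesmosome, 3 rose and 6 fell. ITGA2, the alpha chain of a collagen receptor, rose from 126, 111 and 113 CPM to 282, 289.8 and 281 CPM (log2 fold change 1.28, SE 0.05, adjusted p = 4.40e-12), and ITGB3, the beta chain of a vitronectin receptor, fell (log2 fold change -0.91, SE 0.08, adjusted p = 1.69e-07). Without lung-recovered library 2, the integrins called higher went from 3 to 1.

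Inflammatory genes rose in several lists. Of 42 members of the NF-kB list, 40 were tested, 28 rose, none fell and 12 were not called, with a median log2 fold change of 0.51. The list was drawn up with earlier results of these libraries known, so its direction is not independent evidence. ICAM1 (ENSG00000090339, chr19:10270835-10286615), the leukocyte adhesion molecule, was at 27.7, 30.2 and 29.6 CPM in the dish-grown libraries and 197, 222 and 192 CPM in the lung-recovered libraries (log2 fold change 2.8, SE 0.06, adjusted p = 6.76e-15). VCAM1, whose promoter is shown above, was at 0.392, 0.189 and 0.201 CPM in the dish-grown libraries and 4.57, 5.23 and 4.18 CPM in the lung-recovered libraries (log2 fold change 4.15, SE 0.27, adjusted p = 4.87e-09). SOD2, the mitochondrial superoxide dismutase and a classic NF-kB target, was at 794, 757 and 772 CPM in the dish-grown libraries and 1951, 2036 and 1925 CPM in the lung-recovered libraries (log2 fold change 1.35, SE 0.04, adjusted p = 2.14e-13). All 3 lung-recovered libraries were above all dish-grown ones for each of these, and 96.4% of all called genes lacked overlap. TNFAIP3 was at 38, 27.6 and 30.8 CPM in the dish-grown libraries and 68.3, 83.2 and 68.4 CPM in the lung-recovered libraries (log2 fold change 1.19, SE 0.09, adjusted p = 5.18e-08), and NFKBIZ was at 11.3, 9.29 and 9.1 CPM in the dish-grown libraries and 27.1, 28.8 and 26.8 CPM in the lung-recovered libraries (log2 fold change 1.49, SE 0.08, adjusted p = 9.21e-10). Both act within the feedback of the pathway, the former as a brake.

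Of 27 chemokine genes, 8 passed the low-count filter and were called higher, and 19 were too low to test, 9 of them with no count. Some of the 8 passed only through the lung-recovered libraries, so the count of 8 is no measure of the family. CCL20 was at 0.783, 0.66 and 0.564 CPM in the dish-grown libraries and 4.86, 5.57 and 5.2 CPM in the lung-recovered libraries (log2 fold change 2.96, SE 0.20, adjusted p = 7.44e-09). CXCL3 was at 5.19, 3.63 and 5.28 CPM in the dish-grown libraries and 18.6, 22.7 and 18.1 CPM in the lung-recovered libraries (log2 fold change 2.06, SE 0.13, adjusted p = 3.31e-09), and its paralogue CXCL2 rose with a log2 fold change of 1.49. Reads of CXCL2 and CXCL3 may have been split between the genes. CX3CL1, fractalkine, a membrane-bound chemokine for monocytes, had 1 count in dishes and 389 after recovery, a ratio of 365 (65.1 to 14453).

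Cytokines and their receptors included some of the steepest rises. CSF3 (ENSG00000108342, chr17:40015361-40017813), the granulocyte colony-stimulating factor, had 0, 1 and 4 counts in dishes and 342, 323 and 453 after recovery, from 0.0694 ± 0.0828 to 15.7 ± 1.4 CPM (SD, n = 3; log2 fold change 7.61, SE 0.27, adjusted p = 3.09e-12). IL1B, interleukin-1 beta, was at 0.392, 0.377 and 0.725 CPM in the dish-grown libraries and 5.92, 5.38 and 5.85 CPM in the lung-recovered libraries (log2 fold change 3.47, SE 0.22, adjusted p = 4.07e-09). IL7R, the interleukin-7 receptor, was at 2.94, 1.89 and 2.01 CPM in the dish-grown libraries and 12.3, 12.6 and 9.95 CPM in the lung-recovered libraries (log2 fold change 2.35, SE 0.16, adjusted p = 8.07e-09). In all 3 genes the lowest lung-recovered library stood several times above the highest dish-grown one. Of 37 tested members of the interleukin and colony-stimulating factor list (48 in all), 20 rose, 3 fell and 14 were not called. One that fell was IL31RA, a receptor chain (32.9 to 23.4 CPM). In the TNF superfamily list, 8 of 18 tested members rose, among them the receptors TNFRSF14 (log2 fold change 1.55) and CD40 (1.62), and TNFRSF21 fell.

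Sensors of microbial and nucleic acid patterns rose in 13 of 24 tested members (31 in all), with 1 fall. Of the 13, 3 passed the filter through the lung-recovered libraries alone, AIM2 and NLRP3 among them, so the count of 13 is no measure of the list. Of the 21 that passed through both groups, 10 rose and 1 fell. TLR2, the receptor for bacterial lipoproteins, was at 28.5, 24.9 and 24.8 CPM in the dish-grown libraries and 112, 110.2 and 108 CPM in the lung-recovered libraries (log2 fold change 2.08, SE 0.05, adjusted p = 5.59e-14). AIM2, a sensor of cytosolic DNA, had 3 counts in dishes and 114 after recovery, a ratio of 35.7 (11.9 to 175). NLRP3, an inflammasome sensor, rose 4.25-fold and reached 1.1, 1.24 and 0.987 CPM. CASP1, the inflammasome protease, rose 2.13-fold (5.5 to 11.8 CPM). Of these, TLR2 alone stood above 20 CPM in every library.

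Complement and acute-phase genes rose in 15 of 21 tested members, fell in 2, and 22 of the 43 in the list were too low to test. C3 (ENSG00000125730, chr19:6677704-6730562), the central complement component, was at 200.4, 307 and 342 CPM in the dish-grown libraries and 1027, 972 and 1044 CPM in the lung-recovered libraries (log2 fold change 1.84, SE 0.12, adjusted p = 7.65e-09). Dish-grown library 1 had the lowest C3 of all, and the lung-recovered libraries lay close together. C1S and C1R, the proteases that start the classical pathway, rose 5.6-fold and 4.6-fold. SAA2, serum amyloid A, rose 3.74-fold, though its reads can be shared with SAA1. LTF, lactoferrin, fell from 4.06, 5.23 and 6.4 CPM to 1.18, 2.19 and 1.33 CPM (log2 fold change -1.77, SE 0.22, adjusted p = 1.29e-05), and CLU, clusterin, fell by 0.63 on the log2 scale. Beside these inflammatory groups, the 12 macrophage markers summed to 6.43 to 6.85 CPM in dishes and 8.13 to 9.16 CPM after recovery. Of the 3 that could be tested, MARCO rose, CD68 and PTPRC were not called, and AIF1 and TYROBP had 0 counts in all 6 libraries. The part of this difference in the results above was not tested.

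Interferon-stimulated genes were divided. Of 39 tested members (45 in all), 15 rose, 3 fell and 21 were not called (46.2% called), with a median of 0.14. Of the 15, 6 passed the filter through the lung-recovered libraries alone, XAF1, OAS2 and IFI27 among them. XAF1, a proapoptotic interferon target, was at 0.147, 0.377 and 0.0806 CPM in the dish-grown libraries and 15.2, 12.8 and 16.1 CPM in the lung-recovered libraries (log2 fold change 6.2, SE 0.24, adjusted p = 9.71e-12). OAS2, an antiviral sensor of double-stranded RNA, was at 0.441, 0.471 and 0.725 CPM in the dish-grown libraries and 6.72, 6.42 and 6.76 CPM in the lung-recovered libraries (log2 fold change 3.57, SE 0.20, adjusted p = 8.25e-10). IFI27, a further interferon target, reached 4.57, 6.61 and 5.09 CPM from 0.93, 0.66 and 0.161 CPM. The groups did not overlap for any of them, as for 96.4% of all called genes. GBP2, a guanylate-binding protein, and SAMD9, whose groups did not overlap either, fell by 0.48 and 0.39 on the log2 scale. Without dish-grown library 1, 5 interferon-stimulated genes were called lower in place of 3. In the JAK-STAT list, 12 of 30 tested members (35 in all) rose and 2 fell, 4 without that library. STAT5A (ENSG00000126561, chr17:42287547-42311943), a transcription factor of cytokine receptors, rose from 0.245, 0.519 and 0.242 CPM to 13.7, 16.2 and 15.2 CPM (log2 fold change 5.48, SE 0.20, adjusted p = 3.37e-12). JAK1, the kinase of interferon and other cytokine receptors, fell from 266, 267 and 271 CPM to 182, 172 and 174 CPM (log2 fold change -0.6, SE 0.04, adjusted p = 3.66e-09). In the antigen presentation list, 8 of 27 tested members (31 in all) rose and 2 fell, with a median of 0.03, and the 37% called is near the 32.4% of all tested genes. PSMB9, an immunoproteasome subunit, rose by 0.78 and the peptide transporter TAP1 by 0.45 on the log2 scale.

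**Figure D3:**
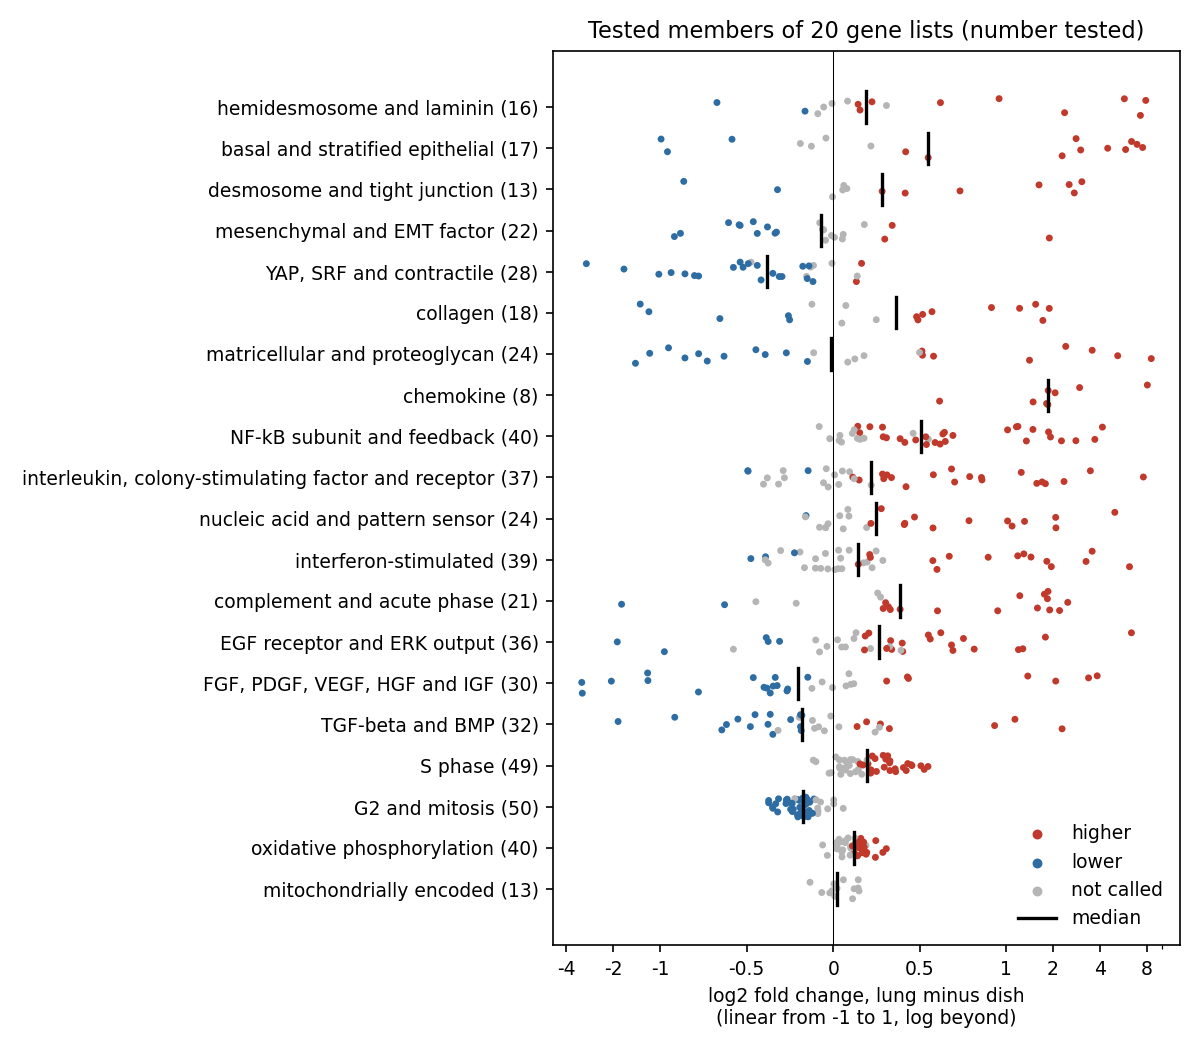
Each row is a gene list with the number of its tested members, and each point a member's log2 fold change (lung-recovered minus dish-grown), red for called higher, blue for called lower and grey for not called; the axis is linear from -1 to 1 and logarithmic beyond, and black bars are medians. The bars lie to the right for the NF-kB (0.51) and basal (0.55) lists, of which 2 and 5 members passed the filter through the lung-recovered libraries alone, and to the left for the contractile list (-0.38), while the S phase, mitosis and respiratory chain lists moved by small amounts.

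Lipid mediator genes were redistributed. LPAR3, a receptor for lysophosphatidic acid, was at 0.049, 0.141 and 0.0403 CPM in the dish-grown libraries and 4.9, 5.66 and 5.39 CPM in the lung-recovered libraries (log2 fold change 6.04, SE 0.31, adjusted p = 3.46e-10). PTGES, the inducible prostaglandin E synthase, was at 7, 7.36 and 6.36 CPM in the dish-grown libraries and 31.5, 35 and 32.8 CPM in the lung-recovered libraries (log2 fold change 2.27, SE 0.08, adjusted p = 3.09e-12). PTGS1, the constitutive cyclooxygenase, fell from 13.5, 13.6 and 12.6 CPM to 4.65, 5.95 and 4.33 CPM (log2 fold change -1.42, SE 0.12, adjusted p = 7.81e-08). S1PR1, a receptor for sphingosine-1-phosphate, fell 2.93-fold. Of 20 tested members (30 in all), 9 rose and 8 fell. Of the 9, 3 passed the filter through the lung-recovered libraries alone, LPAR3 among them. Of the 17 that passed through both groups, 6 rose and 8 fell. The count of 8 became 5 without dish-grown library 2, lung-recovered library 1 or lung-recovered library 3.

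Growth factor systems changed in opposite directions. In the list of EGF receptor ligands and ERK output, 19 of 36 tested members (39 in all) rose and 5 fell, with a median of 0.26. EPGN (ENSG00000182585, chr4:74308473-74315307), the EGF receptor ligand epigen, was at 0.245, 0.141 and 0.362 CPM in the dish-grown libraries and 22.5, 20.3 and 22.1 CPM in the lung-recovered libraries (log2 fold change 6.38, SE 0.17, adjusted p = 1.18e-13). DUSP6, a phosphatase that ERK signalling induces, was at 16.4, 12.1 and 12.9 CPM in the dish-grown libraries and 33.4, 33.5 and 33.2 CPM in the lung-recovered libraries (log2 fold change 1.28, SE 0.09, adjusted p = 8.45e-09). LIF, a cytokine of the interleukin-6 family, rose 3.45-fold. NRG1, a ligand of the related ERBB receptors, went down from 64.7, 53.8 and 49.5 CPM to 14.9, 17.6 and 13.2 CPM (log2 fold change -1.89, SE 0.10, adjusted p = 5.17e-10), and EGFR fell (from 789 ± 76.5 to 608 ± 10.5 CPM; log2 fold change -0.38). DUSP1, a stress-induced phosphatase, fell by 0.39 on the log2 scale. The 5 that fell became 3 without dish-grown library 2, lung-recovered library 2 or lung-recovered library 3.

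Of 30 tested members of the FGF, PDGF, VEGF, HGF and IGF list (43 in all), 16 fell, 7 rose and 7 were not called, with a median of -0.20. PDGFRA, a receptor for platelet-derived growth factors, was at 3.38, 3.73 and 3.46 CPM in the dish-grown libraries and 37.5, 35.7 and 37.1 CPM in the lung-recovered libraries (log2 fold change 3.38, SE 0.08, adjusted p = 2.45e-14). Its ligand gene PDGFB fell from 12.9, 14.9 and 14.8 CPM to 6.68, 5.09 and 6.68 CPM (log2 fold change -1.2, SE 0.11, adjusted p = 3.96e-07). IGFBP3, an IGF-binding protein, rose 14.3-fold, with lung-recovered library 2 the lowest of its group at 13.5 CPM against 18.6 and 20.1. FGF1, a fibroblast growth factor, fell 8.97-fold. GFRA1 (ENSG00000151892, chr10:116056925-116273467), the co-receptor for GDNF, was at 13.8, 13.4 and 14 CPM in the dish-grown libraries and 1.4, 1.86 and 1.29 CPM in the lung-recovered libraries (log2 fold change -3.19, SE 0.14, adjusted p = 2.87e-11). PDGFRA and PDGFB thus moved in opposite directions.

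In the TGF-beta and BMP list, 15 of 32 tested members (42 in all) fell, 7 rose and 10 were not called, with a median of -0.18. TGFB2, a TGF-beta ligand, was at 27.7, 31.1 and 35.2 CPM in the dish-grown libraries and 16.1, 17.8 and 16.2 CPM in the lung-recovered libraries (log2 fold change -0.92, SE 0.08, adjusted p = 3.37e-07). GDF15, a stress-induced member of the family, was at 19.6, 18.1 and 16.8 CPM in the dish-grown libraries and 40.5, 40.9 and 38.4 CPM in the lung-recovered libraries (log2 fold change 1.14, SE 0.07, adjusted p = 1.23e-09). ID1, a BMP target that blocks differentiation factors, rose from 80, 81.4 and 79.9 CPM to 146, 169 and 146 CPM (log2 fold change 0.93, SE 0.05, adjusted p = 1.28e-09). INHBA, the activin chain, rose 4.87-fold from under 0.5 CPM, and BMP4, a BMP ligand, fell 3.64-fold from 1.18, 1.6 and 1.29 CPM.

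In the Notch list, 8 of 21 tested members (30 in all) rose and 3 fell. JAG2 (ENSG00000184916, chr14:105140981-105168824), a Notch ligand, was at 0.979, 0.849 and 1.09 CPM in the dish-grown libraries and 128, 119 and 129 CPM in the lung-recovered libraries (log2 fold change 7.0, SE 0.09, adjusted p = 8.33e-18). HES1, a Notch target and transcriptional repressor, was at 9.74, 9.71 and 11.2 CPM in the dish-grown libraries and 34.7, 35.5 and 33.9 CPM in the lung-recovered libraries (log2 fold change 1.76, SE 0.07, adjusted p = 1.98e-11). The receptors NOTCH3 (log2 fold change -1.15, SE 0.09, adjusted p = 2.57e-08) and NOTCH2 (log2 fold change -0.47) fell. The other member that fell was HEY1, a further Notch target (log2 fold change -0.49, SE 0.18, adjusted p = 0.0493), whose call was lost with DESeq2 (adjusted p = 0.123) and with limma-voom (adjusted p = 0.0586). In the WNT list, 8 of 31 tested members rose and 8 fell, and the rises became 4 without lung-recovered library 3. RNF43, a ubiquitin ligase that removes WNT receptors, rose 2.88-fold. The WNT inhibitors APCDD1 (10.6 to 2.83 CPM) and DKK1 (5.38 to 2.5 CPM) and the receptor FZD2 (12.1 to 4.66 CPM) fell. Of 32 tested axon guidance genes (42 in all), 12 rose, led by SEMA3A, a secreted semaphorin (log2 fold change 1.99), EFNA1, an ephrin (1.93), and NEO1, the netrin receptor neogenin (1.54), and 12 fell, led by SEMA3D (-1.93), SEMA5A (-0.89) and SEMA6D (-0.78).

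Cell-cycle genes moved little, but in opposite directions for the phases. All 49 S phase genes were tested, and 26 rose, none fell and 23 were not called, with a median of 0.20. PCNA (ENSG00000132646, chr20:5114953-5126626), the sliding clamp of DNA polymerase, was at 43.8, 52.7 and 56.3 CPM in the dish-grown libraries and 73.3, 76.1 and 74.6 CPM in the lung-recovered libraries (log2 fold change 0.55, SE 0.07, adjusted p = 9.44e-06). CCNE2, a cyclin of S phase entry, rose from 3.62, 3.91 and 3.99 CPM to 5.45, 5.19 and 5.73 CPM (log2 fold change 0.51, SE 0.13, adjusted p = 0.00653). POLE2, a subunit of DNA polymerase epsilon, rose by 0.53. All 50 genes of G2 and mitosis were tested as well, and 40 fell, none rose and 10 were not called, with a median of -0.17. MKI67 (ENSG00000148773, chr10:128096659-128126385), the proliferation marker, was at 454, 365 and 388 CPM in the dish-grown libraries and 319.7, 306 and 305 CPM in the lung-recovered libraries (log2 fold change -0.37, SE 0.06, adjusted p = 1.51e-04). CCNA2, a cyclin of S phase and G2, was at 214, 225 and 226 CPM in the dish-grown libraries and 169.6, 179.5 and 165 CPM in the lung-recovered libraries (log2 fold change -0.37, SE 0.04, adjusted p = 3.52e-06). CENPA, the centromeric histone, fell by 0.35. The lung-recovered libraries did not overlap the dish-grown ones for the genes named here, as for 96.4% of all called genes. No member of either list changed 2-fold. The 40 falls became 25 without lung-recovered library 3. The heatmap of cell-cycle genes shows the values library by library.

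**Figure D4:**
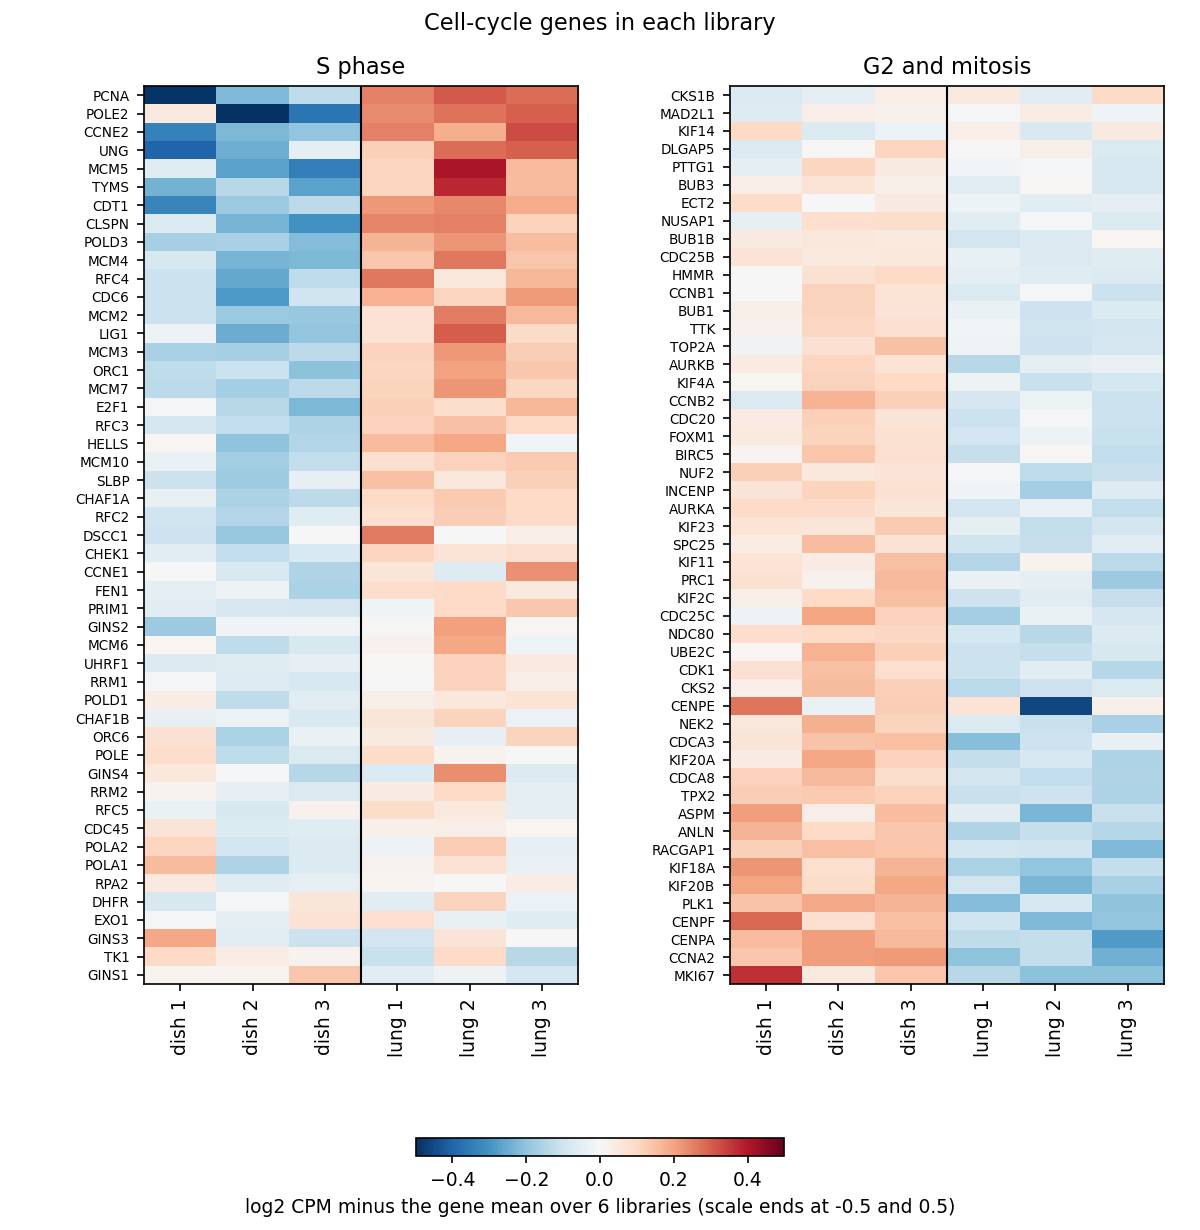
Rows are the 49 S phase genes (left) and the 50 genes of G2 and mitosis (right) in order of log2 fold change, columns the 6 libraries, and colour the log2 CPM minus the gene's mean over the 6 libraries, from -0.5 (blue) to 0.5 (red). Upper S phase rows are red in the lung-recovered columns, most mitosis rows are blue there, and PCNA and MKI67 mark the ends of the lists.

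Genes that restrain the cycle did not move as one. Of 35 tested members of the list of CDK inhibitors, D cyclins and quiescence genes (38 in all), 6 rose, 10 fell and 19 were not called. Their median was 0.01, and 45.7% were called, against 32.4% of all tested genes (16.3% higher and 16.1% lower). CDKN1A, the CDK inhibitor p21, was at 67.8, 65 and 66.8 CPM in the dish-grown libraries and 93.7, 89.7 and 87.5 CPM in the lung-recovered libraries (log2 fold change 0.44, SE 0.04, adjusted p = 8.65e-07). NR2F1, a nuclear receptor used as a marker of dormant tumour cells, was at 0.294, 0.377 and 0.322 CPM in the dish-grown libraries and 0.634, 0.523 and 0.759 CPM in the lung-recovered libraries and was not called (log2 fold change 0.95, SE 0.36, adjusted p = 0.0533). It was called when protein-coding genes alone were tested (adjusted p = 0.0481). BTG1 and GAS6, genes linked to growth arrest, fell by 0.40 and 0.56 on the log2 scale. Among p53 target and DNA damage genes, 15 of 42 tested members (45 in all) rose and 5 fell, with a median of 0.08. In this list 47.6% were called. SPATA18, a p53 target of mitochondrial quality control, rose 4.82-fold to about 2 CPM, and BTG2, an antiproliferative p53 target, rose 1.69-fold. H2AFX, the histone variant of DNA break repair, and XPC, a damage sensor, fell by 0.31 and 0.34 on the log2 scale.

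Acute stress genes were mixed. Of 38 tested immediate-early and heat shock genes (41 in all), 12 rose and 6 fell, with a median of 0.06. Of this list 47.4% were called, against 32.4% of all tested genes. EGR1, a factor induced within minutes by growth signals, was at 26.3, 15.2 and 15.6 CPM in the dish-grown libraries and 43.1, 55 and 45.1 CPM in the lung-recovered libraries (log2 fold change 1.34, SE 0.15, adjusted p = 2.40e-06). JUNB, an AP-1 subunit, was at 68.5, 63.8 and 71 CPM in the dish-grown libraries and 135, 145 and 139 CPM in the lung-recovered libraries (log2 fold change 1.04, SE 0.05, adjusted p = 6.62e-11). JUN and ATF3, partners in the same factor family, fell by 0.34 and 0.35 on the log2 scale. FOS, another AP-1 subunit, rose (log2 fold change 0.9, SE 0.24, adjusted p = 0.00968), a call that was lost without lung-recovered library 1 (adjusted p = 0.0657). Of 42 unfolded protein and ATF4 genes, all tested, 14 fell, 3 rose and 25 were not called (40.5% called, against 32.4% of all tested genes), with HERPUD1, a protein of ER-associated degradation, falling by 0.32 on the log2 scale. The 14 falls became 9 without lung-recovered library 3. SLC7A5, an amino acid transporter, was among the 8 largest losses in CPM (from 2970.0 ± 50.3 to 2469 ± 23.5 CPM; SD, n = 3).

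Of 40 hypoxia and glycolysis genes, all tested, 13 fell, 5 rose and 22 were not called, with a median of -0.01. Of this list 45% were called, against 32.4% of all tested genes. LOX, the collagen cross-linking oxidase, was at 30, 35.5 and 39 CPM in the dish-grown libraries and 16.4, 15.4 and 15.2 CPM in the lung-recovered libraries (log2 fold change -1.16, SE 0.09, adjusted p = 2.89e-08). CA9, a carbonic anhydrase, fell from 25.9, 36.9 and 30.7 CPM to 15, 17.3 and 15.3 CPM (log2 fold change -0.98, SE 0.10, adjusted p = 1.76e-06). ANGPTL4, an inhibitor of lipoprotein lipase, and SLC16A3, a lactate exporter, rose by 1.48 and 0.73 on the log2 scale. Genes that hypoxia is known to induce thus stood on both sides. The 5 rises became 8 without dish-grown library 1.

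In the cholesterol and fatty acid list, 7 of 36 tested members (37 in all) rose and 7 fell, with a median of -0.03. The 38.9% called is near the 32.4% of all tested genes. Among the members that rose were lipid carriers and exporters, of which APOE passed the filter through the lung-recovered libraries alone. APOE, the lipoprotein component, was at 0.294, 0.236 and 0.362 CPM in the dish-grown libraries and 10.7, 10.8 and 10.7 CPM in the lung-recovered libraries (log2 fold change 5.14, SE 0.19, adjusted p = 3.92e-12). ABCA1, the cholesterol exporter, was at 9.45, 10.4 and 12.7 CPM in the dish-grown libraries and 55.8, 56.5 and 51.6 CPM in the lung-recovered libraries (log2 fold change 2.32, SE 0.08, adjusted p = 3.37e-12), and ABCG1, another exporter, rose 1.44-fold. STARD4, a sterol carrier, fell by 0.70 on the log2 scale. The 7 falls became 4 without lung-recovered library 3.

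Of 40 nuclear genes of the respiratory chain, all tested, 19 rose, none fell and 21 were not called, with a median of 0.12. UQCRC2, a core subunit of respiratory complex III, rose from 149, 161 and 151 CPM to 188, 197 and 187 CPM (log2 fold change 0.31, SE 0.04, adjusted p = 2.84e-05), and NDUFB5, of complex I, rose by 0.29. The 19 rises became 11 without dish-grown library 3. None of the 13 protein-coding genes of the mitochondrial genome was called by edgeR, DESeq2 or limma-voom, and 1 had an unadjusted p under 0.05. Their median was 0.02. Without lung-recovered library 2, 5 of the 13 were called higher. For the S phase, NF-kB and respiratory chain lists, no member was called lower by any of these tools or had an unadjusted p under 0.05 in that direction, and the same held for rises among the mitosis genes.

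Iron and redox genes moved in both directions. HEPH (ENSG00000089472, chrX:66162549-66268867), a ferroxidase that loads iron for export, was at 19.7, 23.6 and 19.9 CPM in the dish-grown libraries and 1.52, 1.62 and 1.75 CPM in the lung-recovered libraries (log2 fold change -3.68, SE 0.13, adjusted p = 1.76e-12). By fold it had the largest fall among named genes reaching 10 CPM. FTH1, the ferritin heavy chain that stores iron, had the largest gain in CPM among called genes, from 3965 ± 285 to 5386 ± 47.8 CPM (SD, n = 3; log2 fold change 0.44, SE 0.05, adjusted p = 1.70e-06). By fold its rise was small (1.36-fold). MT2A, a metallothionein, was at 759, 743 and 719 CPM in the dish-grown libraries and 1200.0, 1315 and 1194 CPM in the lung-recovered libraries (log2 fold change 0.74, SE 0.04, adjusted p = 1.63e-09), with reads that close paralogues may share. TXNRD1, thioredoxin reductase, fell from 938, 989 and 985 CPM to 694, 684 and 679 CPM (log2 fold change -0.5, SE 0.04, adjusted p = 2.69e-08). The aldo-keto reductases AKR1C2 and AKR1C3, also near-identical copies, rose 2.94-fold and 2.42-fold. In the whole list, 16 of 30 tested members (49 in all) rose and 4 fell, with a median of 0.17, and 6 fell without dish-grown library 1.

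Among lysosomal genes, 11 of 34 tested members rose and 7 fell, and these 7 became 4 without dish-grown library 2 or lung-recovered library 3. Of the list 52.9% were called, against 32.4% of all tested genes. CTSH, a cathepsin, was at 0.636, 1.04 and 0.644 CPM in the dish-grown libraries and 6.72, 6.57 and 6.72 CPM in the lung-recovered libraries (log2 fold change 3.11, SE 0.19, adjusted p = 2.64e-09), and SQSTM1, the autophagy receptor p62, rose 1.39-fold. Of 32 tested apoptosis genes (36 in all), 9 rose and 5 fell (43.8% called, against 32.4% of all tested genes). MCL1, a survival protein, was at 718, 692 and 704 CPM in the dish-grown libraries and 1035, 1036 and 1036 CPM in the lung-recovered libraries (log2 fold change 0.56, SE 0.04, adjusted p = 4.59e-09). HRK, a proapoptotic member of the same family, was at 11.6, 11.5 and 12.1 CPM in the dish-grown libraries and 3.81, 2 and 2.77 CPM in the lung-recovered libraries (log2 fold change -2.02, SE 0.15, adjusted p = 3.52e-08). BID, another proapoptotic member, rose from 42, 48.5 and 46.8 CPM to 90.3, 91.6 and 94.4 CPM (log2 fold change 1.01, SE 0.05, adjusted p = 3.17e-10), and BMF and BCL2 fell by 1.07 and 0.35 on the log2 scale. Pro-survival and proapoptotic genes thus stood on both sides of the comparison.

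Further large changes fell outside these lists. MDFI, an inhibitor of myogenic factors, was at 0.147, 0.189 and 0.483 CPM in the dish-grown libraries and 14.9, 11.8 and 12 CPM in the lung-recovered libraries (log2 fold change 5.47, SE 0.24, adjusted p = 3.82e-11). CCDC80, a secreted matrix protein, was at 225, 264 and 256 CPM in the dish-grown libraries and 60.8, 63.8 and 58.1 CPM in the lung-recovered libraries (log2 fold change -2.03, SE 0.06, adjusted p = 1.97e-13). RIPOR2, a regulator of RhoA, was at 99.6, 120.0 and 126 CPM in the dish-grown libraries and 27.5, 28 and 28 CPM in the lung-recovered libraries (log2 fold change -2.05, SE 0.07, adjusted p = 3.10e-12). CCDC80 and RIPOR2 were well expressed in dishes. All 3 genes were picked from those whose groups do not overlap, so that trait is no result here. The other falls of this size among named genes reaching 10 CPM were TMEM98 (6.53-fold), LAT2 (5.09-fold), RNF150 (4.85-fold), SCG5 (4.61-fold), ILDR2 (4.3-fold) and MYOZ2 (4.04-fold).

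Some genes were close to silent in dishes and readable in every lung-recovered library. LAMC3, a laminin gamma chain, had 0 counts in the dish-grown and 139 in the lung-recovered libraries, at least 43.5-fold higher against a floor of 3 counts over the group. SERPINF1, the secreted factor PEDF, had 1 count against 387, a ratio of 363 (64.8 to 14378). DOC2B, a calcium sensor of exocytosis, had 1 against 249, a ratio of 234 (41.6 to 9264). With so few dish counts the intervals are wide, and they cover counting error only. ICAM2, an adhesion molecule, had 2 counts against 181, a ratio of 84.9 (23.2 to 707). ATAD3C, a mitochondrial ATPase, had 1 against 126 (ratio 118), and MSR1, a scavenger receptor best known from macrophages, had 3 against 120 (ratio 37.5).

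Changes were spread along the genome, with a few runs of neighbouring genes called in the same direction. In 10 Mb windows with at least 20 tested genes, the 254 medians lay between -0.208 and 0.155, and 20 were beyond 0.1 in either direction. The highest, on chromosome 11 from 0 to 10 Mb, had 39.8% of its genes higher. It holds a run of 13 neighbouring tested genes that rose (hg38 chr11:215458-537287, median 0.43), which includes IFITM1, IFITM2 and IFITM3, antiviral membrane proteins whose reads can be shared, and a further run of 7 (chr11:576486-798333, median 0.40), which includes IRF7, the interferon regulatory factor (log2 fold change 0.81, SE 0.11, adjusted p = 2.02e-05). A run of 8 on chromosome 2 (chr2:101271219-102452565, median 0.95) holds the interleukin receptors IL1R1, IL1RL1, IL18R1 and IL18RAP. On the same chromosome, 7 neighbours from SCN9A to SPC25 fell (chr2:166195185-168913371, median -1.17). These runs were named after their values were seen.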

How the data were processed

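RNA-seq counts of 6 libraries, 3 per group, were analysed. Polyadenylated RNA was captured and made into strand-marked libraries, per the labels' protocols. Reads were aligned with STAR 2.7.1a to hg38, per the submitters' processing notes. The authors deposited 1 table of whole read counts per Ensembl gene, not normalized. The sources used here do not give the counting program, its strand setting or the annotation release, so reads of overlapping, antisense and near-identical genes (AKR1C, metallothionein, IFITM, SAA and CXCL2/CXCL3) may be shared. Mouse reads would count where they resemble a human gene. Symbols and positions come from GENCODE 29, which matched 58216 of 58336 gene IDs.

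Genes kept by filterByExpr (14419, with 99.9% of counts) were scaled by TMM and tested with edgeR 4.0.16 (R 4.3.3) by quasi-likelihood, with group as the only term and Benjamini-Hochberg adjustment over all of them. CPM are relative to TMM-scaled library sizes, and SD is over 3 libraries. The script was tested on simulated data. Where a group had 0 counts, a fold is set against a floor of 3 counts over the group, and with 1 to 3 counts a ratio is given with its exact 95% interval. These intervals are for counting error alone, as reads were not counted by molecular identifier in any source used here. With 20.41 to 26.3 M counts a library, the common biological coefficient of variation was 0.0429. Promoters come from RefSeq (GRCh38.p14) and matched 10136 tested genes by symbol.

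Genes were named by a rule: ITGB4, CDH2, VIM, MKI67, CDKN1A and NR2F1; the 12 largest rises and falls of genes reaching 10 CPM whose groups do not overlap and whose symbol is not a clone identifier; the 8 largest gains and losses in CPM; up to 3 called genes per direction in each list; and up to 10 called genes with at most 3 counts in 1 group. Some genes this rule selects are not reported here. The members and lists were chosen with earlier results of these data known. Alternatives were DESeq2 1.42.0, limma-voom 3.58.1, other scalings, no filter, protein-coding genes alone, all 8 libraries, a replicate block and leaving out each library. The ITGB4-high libraries were otherwise not used here.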

Additional observations from a re-analysis of the deposited data

How the results depend on the processing

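None of the 228 named genes reversed direction under the alternatives run. Against 2354 genes higher and 2315 lower, DESeq2 called 1941 and 1981 (with all 1941 and 1980 of the 1981 shared), limma-voom 2367 and 2304, RLE scaling 2292 and 2360, upper-quartile scaling 2186 and 2458, all 8 libraries in the fit 2238 and 2348, protein-coding genes alone 2084 and 2341, and the test without a filter 2609 and 2298. With DESeq2, both of these scalings, 8 libraries or coding genes alone, fewer genes were thus higher than lower, against slightly more with TMM. Leaving out each library in turn gave 1814 to 2584 higher and 1784 to 2400 lower, with 431 to 482 and 295 to 356 at 2-fold. Deviations from the group means correlated at 0.015, 0.07 and 0.059 for same-numbered libraries over 10683 genes. Differently numbered libraries gave -0.083 to 0.046. All these values are small, and they do not settle whether the numbers pair the libraries. With a replicate block, 2323 genes were higher and 2268 lower. Of the named genes, 226 were called, and 22 of these lost the call under at least 1 alternative; the cause was not tested. List counts of under 5 called genes (26 of them) moved by up to 5 genes when a setting changed or a library was left out. At this depth, genes under about 1 CPM are measured by few counts, and changes under 1.5-fold are recovered less often than larger ones.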
